A study of Homo sapiens with 16 samples.

Results

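In cells that the labels call Huh7, a human line from hepatocellular carcinoma, 103 of the 59609 genes counted had lower transcript levels both with sorafenib and with overexpression of MT1G. These genes were selected on those same measurements. The rule asked for a mean of at least 100 normalised read counts over the 6 libraries of each RNA experiment and a log2 change of -0.5 or less with sorafenib and with MT1G. With sorafenib it also asked that the level stay above 29.7% of control, which is a log2 change of about -1.8. A normalised read count is a read count divided by a size factor of its library, and a log2 change is the log2 of the treated mean plus 1 over the control mean plus 1. At that level 10137 genes were read in both experiments, and the 103 were 1.02% of them.

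Messenger RNA was sequenced in 12 libraries in 4 groups of 3. Cells of the first experiment were treated with sorafenib, an oral inhibitor of RAF and receptor tyrosine kinases, or with its solvent DMSO. Those of the second carried an MT1G overexpression construct or an empty vector. Open chromatin was mapped by ATAC-seq, in which a transposase inserts into accessible DNA, in 2 DMSO and 2 sorafenib libraries. The sources used here state no drug concentration, exposure time, promoter or delivery of the construct, or clonal origin of the cells. They do not say either that the 3 samples of a group were separate cultures, so the spread between libraries may be technical.

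Metallothioneins such as MT1G are small cysteine-rich proteins that bind zinc and copper and rise when free metal does. Sorafenib blocks the RAF, MEK and ERK kinase relay and angiogenic receptors, and is a standard drug against advanced liver cancer. Liver cells owe much of their metabolic gene expression to transcription factors such as CEBPA and HNF4A, and both of these were among the 103.

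The label was checked against defining markers of the hepatocyte lineage. Of 14 hepatocyte markers, 12 had means below 10 in all 4 RNA groups. ALB (albumin) and APOB (apolipoprotein B) had 0 reads among the 240288207 reads counted in genes over the 12 libraries, which allows up to 3 reads. AFP, the fetal albumin-like protein, had 15 reads over all libraries. GPC3, a surface proteoglycan often used as a marker of hepatocellular carcinoma, had 0. The 2 markers above that level were CPS1, an enzyme of the urea cycle, at 17159 ± 591 (SD, n = 3) in DMSO, and HNF4A. The secreted-protein markers of a liver line were therefore absent or near 0 in every library, which goes against the label, and the cells are referred to by that label only.

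Markers of other cell types were read in the same way. Of 9 endothelial markers 7 were below 10 in the DMSO libraries, with CLEC4G and EMCN at 0 in every group. Their summed level was 70.4 to 84.0 with DMSO, 43.9 to 68.0 with sorafenib, 46.5 to 80 with the vector and 40.7 to 48.7 with MT1G. Of 12 leukocyte markers 11 were below 10 with DMSO, with CD3D and CD3E at 0 in every group, and the sums were 39.4 to 53.5, 32.9 to 35.3, 37.6 to 43.2 and 29.3 to 40.7 in the same order. Of 11 stellate cell and fibroblast markers 4 were below 10 with DMSO, with LRAT at 0 in every group. Led by LUM and COL1A1, they summed to 2374 to 2642 with DMSO and 1161 to 1211 with sorafenib, and to 2218 to 2275 with the vector and 2716 to 3524 with MT1G. Of 7 cholangiocyte markers, which include the member EPCAM, 4 were below 10 with DMSO. Led by KRT7, a keratin of duct and other simple epithelia, they summed to 16561 to 18869 with DMSO and 18078 to 19559 with sorafenib. With the vector they summed to 16986 to 18406 and with MT1G to 20509 to 24557, without overlap. With DMSO, KRT7 alone had a mean of 16568, EPCAM 592 and MUC1 512. KRT19 (0.70), SOX9 (5.94), CFTR (1.38) and SPP1 (7.05) were low. The hepatocyte markers, led by CPS1, summed to 16842 to 17897 with DMSO and 6552 to 6890 with sorafenib. With the vector the hepatocyte sums were 19407 to 19881, and with MT1G 16516 to 18468. The part of these marker levels in the changes below was not tested. In bulk samples, fewer cells of a kind and less RNA per cell cannot be told apart.

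Reads counted in genes ran from 16549330 to 26781600 per library. MT1G itself had 0 reads in all 3 vector libraries, which allows up to 3 reads over the group, and 140.2, 130.2 and 179 normalised read counts in the overexpression libraries. It was also at 0 in the DMSO libraries and at 189, 158 and 194 with sorafenib. Of the genes in the study's title, none met the rule. DNMT1, the maintenance DNA methyltransferase, had log2 changes of -0.061 with sorafenib and -0.28 with MT1G. KLF4, a zinc finger transcription factor, was higher in both, by 3.00 and 2.86. CA9, a carbonic anhydrase of the cell surface, had log2 changes of -5.61 and -1.68, but its mean in the MT1G experiment was under 100.

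With sorafenib, 2434 of the 10137 genes (24%) were at or below -0.5. With MT1G there were 255 (2.52%). The 2 lists shared 107 genes, which were 4.40% of the sorafenib list and 42.0% of the MT1G list. Of these, 4 lay below the window of the rule: METTL7A, C11orf86, CUTA and H19. CUTA and H19 were uneven within groups, and their treated and control libraries overlapped in each experiment. With DMSO, CUTA had 205, 2865 and 3176 and H19 had 382, 493 and 3587. A further 148 genes of the MT1G list were not on the sorafenib list, and 22 of those were higher with sorafenib by a log2 change of 0.5 or more. The 2 experiments have their own control libraries.

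Among the 103, the median log2 change was -0.72 with sorafenib (range -1.70 to -0.51) and -0.62 with MT1G (range -2.75 to -0.51). Over all 10137 genes these medians were -0.13 and -0.0090. The sorafenib change was the larger in 64 members and the MT1G change in 39. At a log2 change of -1 or less there were 28 members with sorafenib, 13 with MT1G and 4 with both: MYLK3, NAT8L, TOGARAM2 and TAGLN. The plot of both changes shows this L-shaped spread: most members lie close to a threshold on at least 1 axis.

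**Figure D1:**
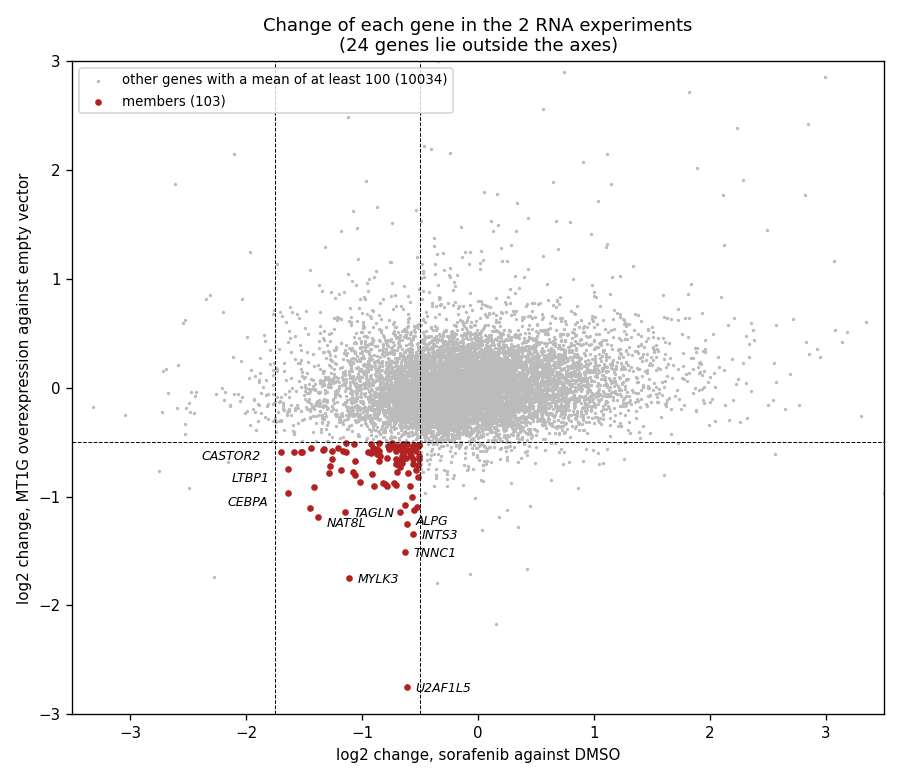
Each point is 1 gene with a mean of at least 100 in both experiments, with the log2 change with sorafenib on the x axis and with MT1G overexpression on the y axis. Dashed lines are the thresholds of the rule (about -1.8 and -0.5 on x, -0.5 on y), and the 103 red points are the members; 24 genes lie outside the axes.

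Because both contrasts chose the members, their changes are given as a description. By limma with Benjamini-Hochberg adjustment over all genes tested, 98 members had an adjusted p under 0.05 with sorafenib, where 35.8% of all tested genes were called lower, and 96 with MT1G, where 11.3% were. All 3 treated libraries were below all 3 control libraries in 98 members in each experiment, and in 96 members in both. That separation was seen in 46.7% of the 10137 genes with sorafenib and in 24.5% with MT1G. At the threshold of -0.5 the values just inside and just outside lay close together. UCP2 and RPLP0P6 were members at -0.51 each with sorafenib, while CHST13 and MRPL23 stayed out at -0.50 each. HSPA2 was a member at -0.51 with MT1G, and RPL3P4 and CCDC102A stayed out at -0.50 each. At the lower end CASTOR2 (-1.70) and CEBPA (-1.64) were inside, and C11orf86 (-2.16) and H19 (-2.28) outside. HSPA2, with a mean of 101 in the sorafenib experiment, was inside, and ETNK2, with 96.1, was outside.

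Membership depended on single libraries. Leaving out each of the 12 libraries in turn gave 80 to 141 genes, and 51 of the 103 met the rule each time. Libraries are numbered by the columns of the deposited tables. The fewest were found without MT1G library 2, and the most without MT1G library 3. Without DMSO library 3 there were 81. Library 2 was the lowest of the 3 MT1G libraries in 68 members (66.0%), against 39.2% of the 10137 genes. DMSO library 3 was the highest of its group in 68 members as well, against 45.8%. The part of these libraries in the members' changes was not tested beyond leaving each out.

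**Figure D2:**
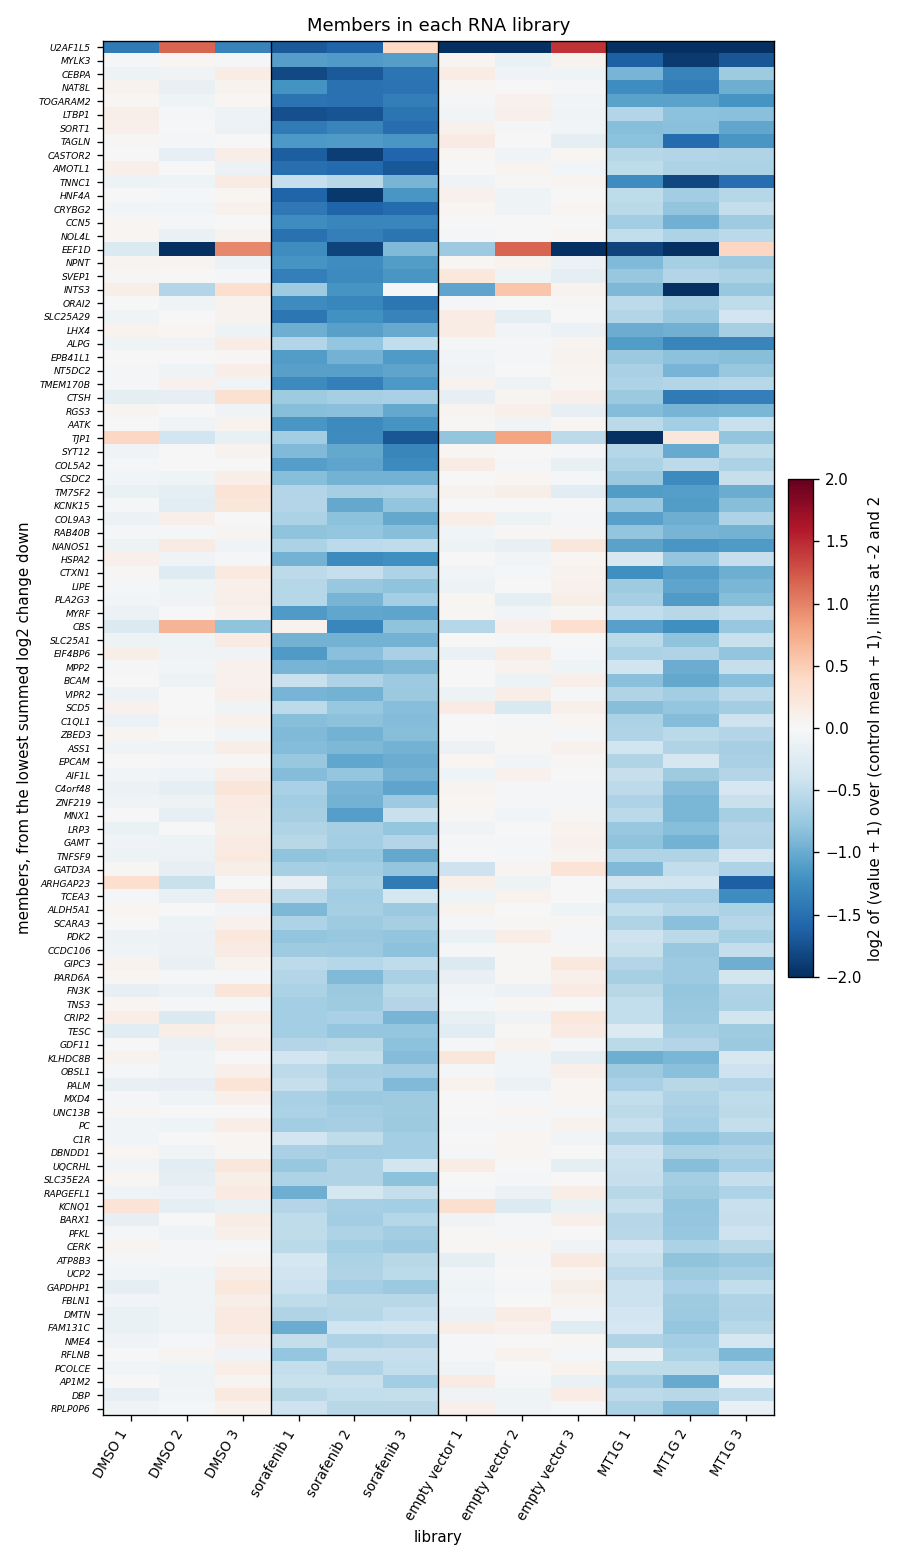
Rows are 102 of the 103 members, from the lowest summed log2 change at the top, and columns are the 12 RNA libraries. Colour is the log2 of the value plus 1 over the mean of the experiment's control libraries plus 1; U2AF1L5, EEF1D, INTS3, TJP1 and CBS vary within groups, while most other rows are even within each group of 3.

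The members were sorted by known role after the list was known, into 8 kinds and a remainder of 11. Of the 103, 29 stood on at least 1 of 58 pathway lists, and no list held more than 3. The transcription and RNA regulators were 15 genes, with medians of -0.78 with sorafenib and -0.64 with MT1G. CEBPA (chr19:33299934-33302534 in RefSeq on GRCh38.p14), a leucine zipper factor of liver and fat metabolism, led them. Its normalised read counts were 641, 651 and 762 in the DMSO libraries and 196, 212 and 248 with sorafenib. In the other experiment they were 913, 782 and 778 with the vector and 434, 326 and 504 with MT1G. Every treated library was below every control library, with log2 changes of -1.64 with sorafenib and -0.97 with MT1G.

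HNF4A (chr20:44355699-44434596), a nuclear receptor that maintains hepatocyte and gut epithelial identity, had 339, 333 and 350.3 with DMSO and 111, 88.8 and 152 with sorafenib. With the vector its values were 344, 303 and 321, and with MT1G the mean was 215 ± 13.9 (SD, n = 3). Neither pair of groups overlapped. The log2 changes were -1.53 with sorafenib and -0.59 with MT1G. On the list of liver transcription factors, 20 genes were tested in each experiment. With sorafenib 15 were called lower and 4 higher, with a median log2 change of -0.58, and with MT1G 4 lower and 2 higher, with a median of -0.055. CEBPA and HNF4A were the members among its 18 well-expressed genes.

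Other regulators had smaller or more even changes. LHX4, a LIM homeobox factor, had log2 changes of -1.02 with sorafenib and -0.86 with MT1G, and MNX1, a homeobox factor of motor neurons and pancreas, of -0.71 with sorafenib and -0.70 with MT1G. MXD4, a MAX partner that opposes MYC, had 2778, 2655 and 3044 with DMSO and 1798, 1681 and 1724 with sorafenib. With the vector it had 2695, 2684 and 2786 and with MT1G 1927, 1780.4 and 1911, again without overlap. DBP, a clock-controlled transcription factor, sat close to both thresholds at -0.51 with sorafenib and -0.52 with MT1G. NANOS1, an RNA-binding translational repressor, was lower by more with MT1G (-1.12) than with sorafenib (-0.55). NOL4L, a nucleolar protein-like gene, had -1.44 with sorafenib and -0.55 with MT1G. The homeobox factor BARX1, the myelin regulator MYRF, the zinc finger proteins ZNF219 and ZBED3, the elongation factor TCEA3 and the RNA-binding CSDC2 lay between -1.07 and -0.52 with sorafenib and between -0.82 and -0.52 with MT1G.

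The upstream sequences of 4 members are shown because their level was low in both experiments under every omission of a library and the 1 start that the RefSeq promoter table lists for them was open in all 4 ATAC-seq libraries. They are the 4 such genes with the lowest summed log2 change: CEBPA, AMOTL1 (an angiomotin that holds YAP at junctions), CRYBG2 (a protein with crystallin-type domains) and NPNT (nephronectin, an integrin ligand of basement membranes). Each runs over the 250 bases before that start (GRCh38.p14), 5′ to 3′ on the gene's strand. For AMOTL1 the start lies 61.9 kb inside the annotated span of the gene, so it is not the first one annotated. Capitals mark 3 motifs, searched on either strand, none of which overlap in these windows. The GC box was searched as GGGCGG. For the CCAAT box those letters were used. The TATA box was searched as TATAAA. The positions are chr19:33302535-33302784 (minus strand) for CEBPA, chr11:94768106-94768355 (plus) for AMOTL1, chr1:26354131-26354380 (minus) for CRYBG2 and chr4:105895221-105895470 (plus) for NPNT.
CEBPA: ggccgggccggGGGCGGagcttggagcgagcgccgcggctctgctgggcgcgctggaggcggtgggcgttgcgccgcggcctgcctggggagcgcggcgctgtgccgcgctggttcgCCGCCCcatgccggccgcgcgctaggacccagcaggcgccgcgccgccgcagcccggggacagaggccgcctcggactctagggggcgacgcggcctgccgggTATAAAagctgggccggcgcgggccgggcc
AMOTL1: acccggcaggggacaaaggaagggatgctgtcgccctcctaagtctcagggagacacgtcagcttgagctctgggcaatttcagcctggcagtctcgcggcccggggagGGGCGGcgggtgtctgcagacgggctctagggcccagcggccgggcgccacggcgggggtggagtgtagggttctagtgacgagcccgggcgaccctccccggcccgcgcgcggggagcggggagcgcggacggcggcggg
CRYBG2: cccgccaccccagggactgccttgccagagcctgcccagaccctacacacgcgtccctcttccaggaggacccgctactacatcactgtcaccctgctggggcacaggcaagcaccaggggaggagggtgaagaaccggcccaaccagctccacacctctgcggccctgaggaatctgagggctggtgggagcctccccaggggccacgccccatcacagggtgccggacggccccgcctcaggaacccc
NPNT: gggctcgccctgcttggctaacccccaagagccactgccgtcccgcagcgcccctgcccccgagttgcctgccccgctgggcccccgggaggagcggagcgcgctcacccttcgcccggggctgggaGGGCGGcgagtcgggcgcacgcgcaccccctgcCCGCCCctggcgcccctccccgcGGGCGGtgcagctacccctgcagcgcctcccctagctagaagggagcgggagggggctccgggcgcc

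The CEBPA window held 2 GC boxes and 1 TATA box, the NPNT window 3 GC boxes, the AMOTL1 window 1, and the CRYBG2 window none of these letters. Of 27305 RefSeq promoters, 42.3% had a GC box in the same 250 bases, 33.0% a CCAAT box and 11.1% a TATA box. Over 300 bases, 250 before and 50 after the start, 44.6% of these promoters had a GC box. Among 8174 promoters of genes with a mean of at least 100 in both experiments, that share was 72.6%. G and C made up 81.2% of the CEBPA window, 79.2% of NPNT, 73.2% of AMOTL1 and 68.8% of CRYBG2. Only 69 of the 103 members (67.0%) had an entry in the promoter table. That is under the 80% needed, so a comparison of base composition or motifs between the members and other genes is void and none is given.

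Contractile and cytoskeletal proteins made up 14 members, with medians of -0.70 with sorafenib and -0.63 with MT1G. MYLK3 (chr16:46702282-46763246), the myosin light chain kinase of heart muscle, had 304, 317 and 303 with DMSO and 143, 140.4 and 143 with sorafenib. Its vector libraries had 455, 402 and 459.7 and its MT1G libraries 140.2, 116 and 134. The 3 values within each group were close, the groups stood apart in both experiments, and the MT1G change (-1.746) was larger than the sorafenib change (-1.11).

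TAGLN (chr11:117199294-117207465), or transgelin, is an actin-binding protein of smooth muscle. With DMSO it had 382, 370.2 and 372, and with sorafenib 168, 170.3 and 168. With the vector it had 209, 188 and 166, and with MT1G 106, 64 and 83.4. The vector level was near that of the sorafenib-treated group of the other experiment, whose values were scaled separately. Its log2 changes were -1.15 with sorafenib and -1.14 with MT1G.

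TNNC1 (chr3:52451100-52454041), the calcium-binding troponin C of slow and cardiac muscle, had the larger change with MT1G. It had 887, 949 and 967 with the vector and 396, 263 and 323 with MT1G, a log2 change of -1.51. With DMSO it had 670.4, 677 and 808 and with sorafenib 521, 490.2 and 378, a log2 change of -0.63. All 3 genes stood on the list of smooth muscle and contractile genes, as 3 of its 25 well-expressed genes (12%, against 1.02% of all). Of the 29 list genes tested with sorafenib, 21 were called lower and 3 higher, with a median of -0.37. Of 29 tested with MT1G, 9 were called lower and 1 higher, with a median of -0.15.

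AMOTL1 had log2 changes of -1.59 with sorafenib and -0.59 with MT1G, with 1355, 1283 and 1171 in DMSO and 445, 430.4 and 392 in sorafenib. TOGARAM2, a protein with microtubule-binding TOG domains, had 636, 684 and 623 with the vector and 308, 307 and 285 with MT1G, and log2 changes of -1.45 with sorafenib and -1.11 with MT1G. EPB41L1, which links membrane proteins to actin, had -1.06 with sorafenib and -0.80 with MT1G. TNS3, a tensin of focal adhesions and the most abundant of this kind by read count, had a narrower change of -0.65 with sorafenib and -0.63 with MT1G. ARHGAP23, a GTPase-activating protein, overlapped between groups with sorafenib, at 431, 313 and 183 against 612, 355 and 491 with DMSO. With MT1G it had 607, 591 and 250.3, and without library 3 its log2 change was -0.38. OBSL1, PALM, DMTN, AIF1L, RFLNB and CRIP2, mostly adaptors of the actin cytoskeleton and membrane, lay between -0.86 and -0.55 with sorafenib and between -0.64 and -0.52 with MT1G.

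**Figure D3:**
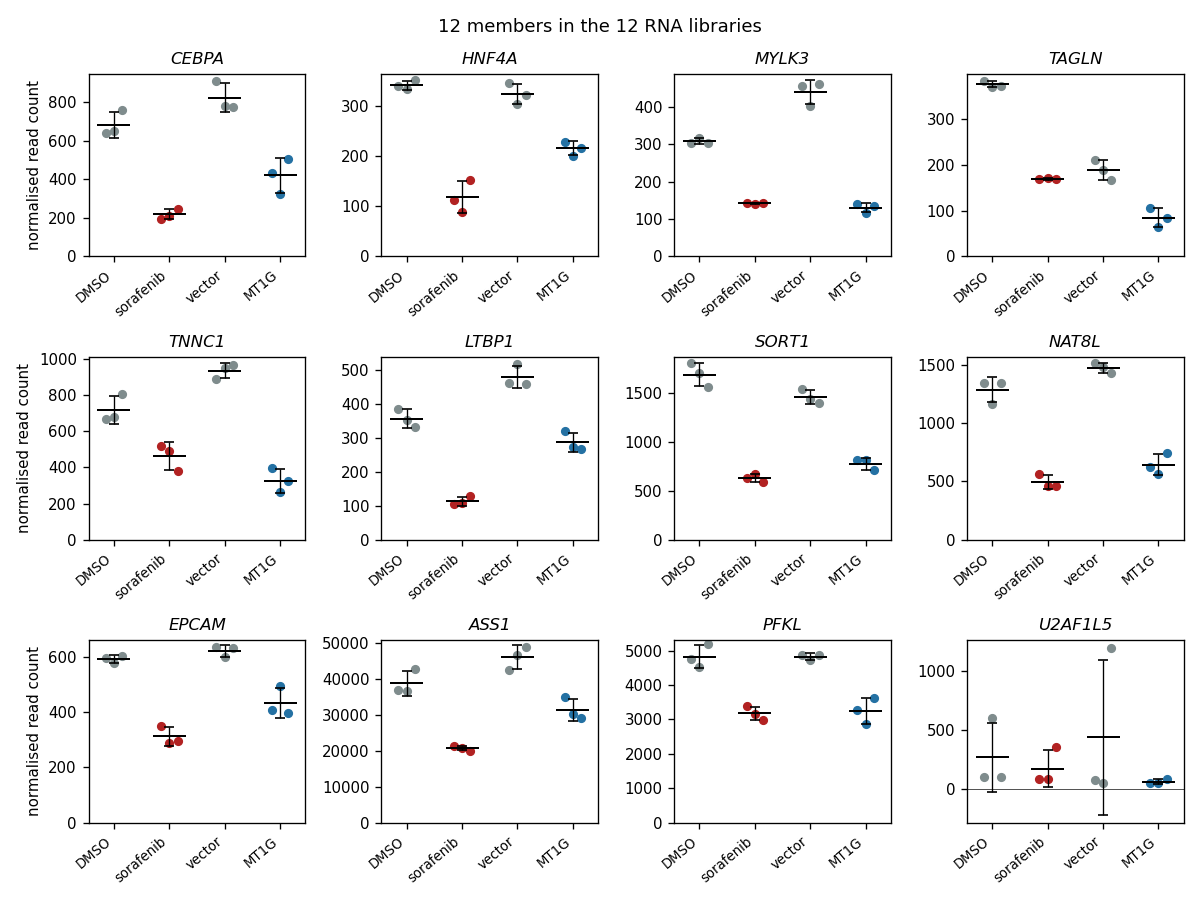
Each panel shows 1 member, with normalised read counts on a linear y axis, 3 libraries a group as points, the mean as a line and the SD as a bar. In the 11 panels other than U2AF1L5 the treated libraries lie below their own control libraries; in U2AF1L5 1 vector library (1191) and 1 DMSO library (602) lie far above the rest.

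Matrix and other secreted structural proteins numbered 9, with medians of -1.14 with sorafenib and -0.66 with MT1G. All 9 had groups that did not overlap, as had 96 of the 103 members, which were chosen on these values. LTBP1 (chr2:32946953-33399509), which stores latent TGF-beta in the matrix, had 385, 351 and 329.6 with DMSO and 105, 107 and 128 with sorafenib. With the vector it had 462, 517 and 459 and with MT1G 318, 272 and 268. The log2 changes were -1.64 with sorafenib and -0.74 with MT1G.

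CCN5, a matricellular protein of the CCN family, had log2 changes of -1.29 with sorafenib and -0.79 with MT1G, and NPNT had -1.18 with sorafenib and -0.76 with MT1G. SVEP1, a large multidomain matrix protein, had -1.26 with sorafenib and -0.66 with MT1G. COL5A2, a chain of fibril-forming collagen V, had 566, 578 and 574 with DMSO and 268, 276 and 236 with sorafenib. Its vector libraries had 765, 681 and 621 and its MT1G libraries 444, 480.3 and 444, so that all treated libraries were below their controls. COL9A3, a chain of cartilage collagen IX, changed by a like amount in both, at -0.82 with sorafenib and -0.88 with MT1G. FBLN1, the matrix glycoprotein fibulin 1, was abundant, with 12437, 12303 and 14017 in DMSO and 9124, 8766 and 8825 in sorafenib, and changed by -0.54 with sorafenib and -0.58 with MT1G. PCOLCE, which speeds the trimming of procollagen, lay near both thresholds at -0.52 with sorafenib and -0.54 with MT1G, and C1QL1, a secreted C1q-domain protein, had -0.85 with sorafenib and -0.62 with MT1G. On the list of collagens and other matrix genes, 35 of 50 tested genes were called lower and 6 higher with sorafenib, with a median of -0.63. With MT1G it was 7 lower and 11 higher of 48, with a median of 0.091. Its 3 members, COL5A2, COL9A3 and FBLN1, were among 38 well-expressed genes.

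Junction and adhesion proteins were 5 members. EPCAM, an epithelial adhesion molecule, had 594, 577 and 605 with DMSO and 350.2, 289 and 297 with sorafenib. It had 637, 598 and 630.0 with the vector and 409, 494 and 397 with MT1G. Groups did not overlap, and the log2 changes were -0.92 with sorafenib and -0.52 with MT1G. BCAM, a laminin receptor, had the larger change with MT1G (-0.91 against -0.59), PARD6A, a subunit of the apical polarity complex, had -0.71 with sorafenib and -0.58 with MT1G, and MPP2, a membrane scaffold, had -0.92 with sorafenib and -0.59 with MT1G. TJP1, the tight junction scaffold ZO-1, was uneven. Its vector libraries had 70.2, 211 and 84 and its MT1G libraries 29.8, 143 and 70.2, and without vector library 2 its MT1G log2 change was 0.071. On the list of cell junction and polarity genes, 30 of 46 tested were called lower and 7 higher with sorafenib, and 9 lower and 9 higher of 46 with MT1G.

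The largest kind was 18 metabolic enzymes and mitochondrial carriers, with medians of -0.70 with sorafenib and -0.58 with MT1G. NAT8L (chr4:2059327-2069089), which makes N-acetylaspartate from aspartate and acetyl-CoA, changed most. It had 1345, 1161 and 1349 with DMSO and 563, 457 and 461 with sorafenib. Values with the vector were 1513, 1478 and 1429, and with MT1G 623, 566 and 745. No groups overlapped, and both log2 changes were past -1, at -1.38 with sorafenib and -1.19 with MT1G.

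ASS1 (chr9:130444707-130501274), the urea cycle enzyme that joins citrulline and aspartate, had the most reads of all members. Its DMSO libraries had 36912, 36502 and 42604 and its sorafenib libraries 21181, 20716 and 20046. With the vector it had 42389, 46615 and 48874 and with MT1G 34789, 30129 and 29065. Both pairs of groups stood apart, at -0.91 with sorafenib and -0.55 with MT1G. FBLN1 and SLC25A1 also had means over 5000 in the 12 libraries.

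Among the members were enzymes of central carbon metabolism. PFKL, the liver form of phosphofructokinase, had 4761, 4524 and 5192 with DMSO and 3386, 3157 and 2991 with sorafenib. With the vector it had 4880.4, 4715 and 4873, and with MT1G 3269, 2862 and 3614. Neither pair of groups overlapped, and the log2 changes were -0.60 with sorafenib and -0.57 with MT1G. PC, or pyruvate carboxylase, which refills the TCA cycle, changed by -0.70 with sorafenib and -0.54 with MT1G, and PDK2, a kinase that turns off pyruvate dehydrogenase, by -0.78 with sorafenib and -0.54 with MT1G.

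SLC25A1, the mitochondrial citrate carrier, had log2 changes of -0.95 with sorafenib and -0.59 with MT1G, SLC25A29, a mitochondrial carrier of basic amino acids, -1.33 with sorafenib and -0.56 with MT1G, and UCP2, an inner membrane carrier, -0.51 with sorafenib and -0.63 with MT1G. On the list of solute carriers 3 of 175 well-expressed genes (1.71%) were members, close to the 1.02% of all. TM7SF2, a sterol reductase of cholesterol synthesis, changed more with MT1G (-1.08) than with sorafenib (-0.63). GAMT, which makes creatine, had -0.60 with sorafenib and -0.78 with MT1G, and ALDH5A1, which clears succinic semialdehyde, had -0.77 with sorafenib and -0.56 with MT1G. LIPE, or hormone-sensitive lipase, had -0.71 with sorafenib and -0.89 with MT1G, and SCD5, a fatty acid desaturase, had -0.70 with sorafenib and -0.77 with MT1G. NME4, a mitochondrial nucleoside diphosphate kinase, FN3K, which removes fructose from glycated proteins, and CERK, which phosphorylates ceramide, lay between -0.65 and -0.56 with sorafenib and between -0.65 and -0.52 with MT1G.

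The lists from which some of these enzymes come were also counted whole. Of all genes tested, 35.8% were called lower with sorafenib and 11.3% with MT1G. Of 30 glycolysis and pyruvate genes tested, 27 were called lower with sorafenib and 9 with MT1G, with medians of -0.55 and -0.13. Of 26 TCA cycle genes, 17 and 8 were called lower, with medians of -0.28 and -0.11. Of 29 sterol genes, 26 and 9 were called lower, with medians of -0.62 and -0.14. Called higher were 1 and 1 glycolysis genes, 3 and 1 TCA cycle genes, and 0 and 1 sterol genes, in the same order. No member stood on the lists of cytosolic ribosomal proteins or of the nuclear respiratory chain and ATP synthase. Of 89 ribosomal genes, 79 were called lower and 4 higher with sorafenib, and 17 lower and 2 higher with MT1G. Of 69 respiratory chain and ATP synthase genes, 60 were called lower and 1 higher with sorafenib, and 14 lower and 1 higher with MT1G. By the log2 change of the rule, the medians with MT1G were -0.15 and -0.13 for the well-expressed genes of these 2 lists, short of -0.5.

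Among 16 receptors, channels, ligands and signalling proteins, ORAI2, a store-operated calcium channel, had 1564, 1455 and 1635 with DMSO and 649, 625 and 568 with sorafenib. It had 1838, 1881 and 1895 with the vector and 1296, 1183 and 1309.8 with MT1G, with log2 changes of -1.34 with sorafenib and -0.57 with MT1G. Both treated groups lay wholly below their controls. RGS3, a regulator of G protein signalling, had -0.90 with sorafenib and -0.90 with MT1G. ALPG, a germ cell alkaline phosphatase, changed more with MT1G, at -1.25 against -0.61. KCNK15 and KCNQ1, potassium channel subunits, had -0.79 and -0.64 with sorafenib and -0.91 and -0.56 with MT1G. CASTOR2, a subunit of the arginine-sensing branch of mTORC1 control, had the lowest sorafenib change of all members, -1.70, and -0.58 with MT1G. Among the remaining 10 were the kinase AATK, the VIP receptor VIPR2, the TGF-beta family ligand GDF11 and the T cell costimulatory ligand TNFSF9. The others were the phospholipase PLA2G3, the complement protease C1R, and SCARA3, RAPGEFL1, TESC and LRP3. Their groups did not overlap, as in 96 of all 103 members. These 10 lay between -1.21 and -0.52 with sorafenib and between -0.87 and -0.51 with MT1G.

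Vesicle traffic and lysosome genes were 8 members, led by SORT1 (chr1:109309575-109397918), or sortilin, which sorts proteins from the Golgi to lysosomes. SORT1 had 1797, 1696 and 1558 with DMSO and 629.6, 672 and 586 with sorafenib. It had 1537, 1433 and 1395 with the vector and 810.1, 811 and 705 with MT1G. All treated libraries were well below all controls, at -1.42 with sorafenib and -0.91 with MT1G. CTSH, the lysosomal protease cathepsin H, changed more with MT1G (-1.14 against -0.67). AP1M2, an epithelial subunit of the AP-1 adaptor, overlapped between groups with MT1G, at 1018, 815 and 1560.1 against 1820.1, 1594 and 1482 with the vector, and without MT1G library 2 its log2 change was -0.34. SYT12, a synaptotagmin, RAB40B, a small GTPase, UNC13B, a vesicle priming factor, ATP8B3 and GIPC3 lay between -1.06 and -0.51 with sorafenib and between -0.89 and -0.56 with MT1G.

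Some members cannot be read with certainty. U2AF1L5 and CBS, which lie far apart on chromosome 21, have near-identical copies, U2AF1 and CBSL, and reads of a pair may be split between them. U2AF1L5, annotated as a copy of a splicing factor subunit, had 75.7, 50.1 and 1191 with the vector and 52.7, 51.2 and 89.3 with MT1G. Its lowest log2 change of all members with MT1G (-2.75) rested on vector library 3, and without it the change was 0.033. With sorafenib the change was -0.61, and without DMSO library 2 it was 0.76. The copy U2AF1 had log2 changes of -2.11 with sorafenib and 2.15 with MT1G, and was uneven as well. It had 769, 37.6 and 146 with DMSO and 80.2, 72.5 and 66.2 with sorafenib, which overlap. With the vector U2AF1 had 35.1, 50.1 and 38.5 and with MT1G 292, 222 and 43.9, so MT1G library 3 lay within the vector range. CBS, the first enzyme of transsulfuration, had 139, 274 and 97.1 with DMSO and 178, 68 and 97.2 with sorafenib, which overlap, and without DMSO library 2 its change was -0.048. With the vector CBS had 136, 218 and 256 and with MT1G 95.4, 86.1 and 120.01, without overlap, a log2 change of -1.01. The copy CBSL had 2.19, 1.79 and 12.8 with the vector and 55.7, 2.33 and 56.3 with MT1G. Its log2 change of the means was 2.57, opposite in sign to that of CBS, though MT1G library 2 lay within the vector range. With sorafenib CBSL stayed low, at means of 2.43 with DMSO and 3.497 with sorafenib.

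Further uneven genes were EEF1D, a subunit of the elongation factor 1 complex, and INTS3, an Integrator subunit. EEF1D had 535, 154 and 1270.3 with DMSO and 454, 1674 and 118 with the vector, and without vector library 2 its MT1G change was 0.67. With sorafenib it was -1.28, and -0.36 without DMSO library 3. INTS3 had 533, 1623 and 1154 with the vector and 593, 54.7 and 652 with MT1G, and its MT1G change of -1.35 was -0.82 without MT1G library 2. With sorafenib its change was -0.56, and -0.33 without sorafenib library 2. U2AF1L5, CBS, EEF1D, INTS3, TJP1, ARHGAP23 and AP1M2 were the 7 members whose groups overlapped in at least 1 experiment.

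The processed pseudogenes and other paired copies among the members were steadier, in that their treated and control libraries did not overlap. Of the 7 copies and pseudogenes, counting U2AF1L5, only 1 met the rule under every omission of a library. By limma, RPLP0P6 had an adjusted p of 0.061 with MT1G. Pseudogenes RPLP0P6, GAPDHP1 and EIF4BP6 share sequence with abundant parents. RPLP0P6 changed by -0.51 with sorafenib and -0.52 with MT1G, and its parent RPLP0 by -0.34 and -0.35. GAPDHP1 had -0.61 with sorafenib and -0.52 with MT1G, and GAPDH -0.48 and -0.26. EIF4BP6 had -0.86 with sorafenib and -0.67 with MT1G, and EIF4B -1.09 and -0.40. UQCRHL, a copy of a complex III subunit gene, had -0.56 with sorafenib and -0.65 with MT1G, and UQCRH -0.70 and -0.28. In each of these 4 pairs the means of parent and copy were lower together. With MT1G, UQCRH overlapped between groups, at 5970, 5818 and 7891 against 8327, 7930 and 7644 with the vector. So did GAPDH, at 106510, 92281 and 86230 against 104213, 116371 and 119720. How far reads of a parent were counted for its copy was not tested. GATD3A and GATD3B, the 2 genes of another chromosome 21 pair, had log2 changes of -0.71 and -0.74 with sorafenib and of -0.65 and -0.63 with MT1G. SLC35E2A had -0.68 with sorafenib and -0.53 with MT1G, and SLC35E2B -1.55 and -0.32. CASTOR3, the copy of CASTOR2, had -0.91 and -0.47.

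The 11 members of no named kind were CRYBG2, NT5DC2, HSPA2, EEF1D, TMEM170B, CTXN1, C4orf48, CCDC106, FAM131C, DBNDD1 and KLHDC8B. CRYBG2 had 2097, 2099.6 and 2316 with DMSO and 809, 718 and 748 with sorafenib. With the vector it had 2648, 2466 and 2654 and with MT1G 1784, 1497 and 1865. NT5DC2, a nucleotidase-like protein, changed by -1.08 with sorafenib and -0.78 with MT1G. HSPA2, a testis-enriched HSP70 chaperone, had -1.14 with sorafenib and -0.51 with MT1G, TMEM170B had -1.26 with sorafenib and -0.58 with MT1G, and CTXN1 had the larger change with MT1G, -1.10 against -0.53. The last 5 on that list lay between -0.87 and -0.56 with sorafenib and between -0.70 and -0.54 with MT1G.

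Several members were neighbours. C4orf48 and NAT8L on chromosome 4 lay 15.4 kb apart, CCN5 and KCNK15 on chromosome 20 lay 18.1 kb apart, and RAB40B and FN3K on chromosome 17 lay 36.9 kb apart. LRP3 and CEBPA on chromosome 19 were 91.1 kb apart. Chromosome 19 held 13 members (12.6%, against 6.65% of the 10004 genes with a place) and chromosome 17 held 9 (8.74%, against 5.91%). Chromosome 20 held 6 (5.83%, against 2.87%) and chromosome 21 held 4 (3.88%, against 0.970%). Other chromosomes lay below their share. Among them were chromosome 1 with 8 (7.77%, against 10.65%), chromosome 3 with 3 (2.91%, against 5.89%) and chromosome 5 with 1 (0.971%, against 4.60%). The spread over chromosomes was not tested. The 4 on chromosome 21 were PFKL and U2AF1L5, CBS and GATD3A, of which the last 3 have near-identical copies. The annotated span of members had a median of 17.7 kb, against 31.0 kb. Of the 103, 99 were protein-coding and 4 pseudogenes.

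Open chromatin had no part in the choice of members. A region is a stretch covered by a peak in at least 1 ATAC-seq library, with peaks of the 4 libraries merged, and it is counted for a gene when it lies within 2 kb of its annotated span. It is called lost when both DMSO libraries and neither sorafenib library had a peak in it, and gained in the reverse case. With 2 libraries against 2 a two-sided permutation test cannot give a p under 0.333, so counts are set beside those of all 10137 genes, of which 10004 had a place. A lost region and no gained one was seen at 24 members (23.3%, against 25.3%), and a gained region and no lost one at 7 (6.80%, against 8.85%). Both shares were near the background. Without 1 library the first count ran from 16 (without sorafenib library 4) to 43 (without DMSO library 1), and the second from 4 (without DMSO library 1) to 18 (without sorafenib library 4). Of 828 regions at the members, 87 (10.5%) were lost and 27 (3.26%) gained, against 10.5% and 3.88% over all genes.

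Lost regions were unevenly spread over the members. COL5A2 had 16 lost of 47 regions and none gained. LTBP1 had 11 lost and 1 gained of 34, SVEP1 6 lost and 1 gained of 15, and NOL4L 5 lost and 4 gained of 41. These 4 genes held 38 of the 87 lost regions. The 9 matrix genes together had 37 lost of 134 regions (27.6%), while the 14 contractile and cytoskeletal genes had 9 of 182 (4.95%) and the 18 metabolic genes 8 of 111 (7.21%). COL5A2, LTBP1 and SVEP1 held 33 of the 37 lost regions of the matrix genes and 96 of the 134 regions. The other 6 matrix genes had 4 lost of 38 (10.5%), the same share as over all genes. These kinds were formed with the RNA values known, and regions of 1 gene share that gene, so no test is given. Among the leading regulators, CEBPA had 1 region, open in all 4 libraries, and HNF4A had 19, with none lost and 1 gained.

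**Figure D4:**
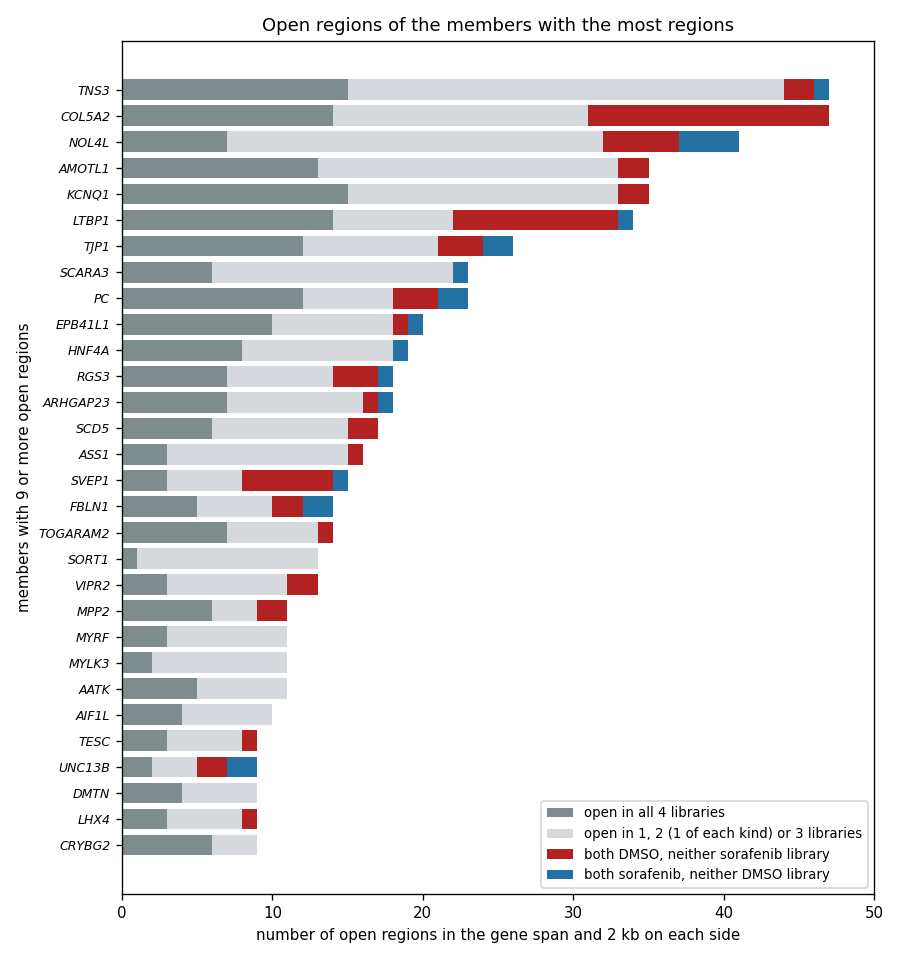
Bars are the 30 members with 9 or more open regions, and bar length is the number of regions within 2 kb of the gene span. Colours give regions open in all 4 libraries, lost with sorafenib (red), gained (blue) or neither; COL5A2 (16) and LTBP1 (11) have the most lost regions, and TNS3, also with 47 regions, has 2.

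At annotated starts, 69 members could be looked up. A gene counted as open in a library when any of its listed starts had a peak within 1 kb. Counted so, none was open in both DMSO libraries and neither sorafenib library, against 0.171% of 8174 genes. None was the reverse, against 0.122%. The loss or gain of a single start at a gene with several was not counted. Without DMSO library 1 the first count was 3 (4.35%, against 0.416%), and without DMSO library 2 the reverse was 2 (2.90%, against 0.587%). All 4 libraries had a peak at 54 of the 69, where 96.3% of the 8174 genes had one. As 34 members had no start in the table, this comparison is void for the members as a set. Placed by their spans, which all 103 have, 92 members (89.3%) had a region open in all 4 libraries, against 98% of the 10004 genes. The 8 members without any region were U2AF1L5, CBS, GATD3A, EIF4BP6, GAPDHP1, ALPG, GIPC3 and RFLNB, of which the first 5 have near-identical copies. The enrichment over background given by the authors' peak caller at the CEBPA start was 8.56 and 11.5 in the DMSO libraries and 13.8 and 8.76 in the sorafenib libraries, ranges that overlap. At MYLK3, which has 2 listed starts, the higher value per library was 6.82 and 7.0 with DMSO and 3.86 and 4.0 with sorafenib. The order was the reverse at AMOTL1, with 7.36 and 7.80 for DMSO and 9.28 and 10.7 for sorafenib. It was also the reverse at NPNT, with 6.52 and 6.47 for DMSO and 9.96 and 7.92 for sorafenib. How many starts separate either way was not counted, so no change of chromatin is read from single starts.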

How the data were processed

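Members and gene lists were chosen with earlier results of these data known. The RNA signal values were deposited as normalised read counts, which the authors made by dividing reads per gene by a size factor per library; multiplied back, they gave whole numbers within 0.001 for 100% of genes. The submitters' processing notes name HISAT2, featureCounts 1.6.1, DESeq2, Bowtie2 2.4.1, MACS2 2.2.7.1 and hg38. The log2 fold changes in the authors' deposited tables differed from those used here by at most 0.0162 (sorafenib) and 0.0178 (MT1G) for members. The deposited peak lists gave a fold enrichment ratio and a -log10 q per peak, called by the authors per library; these 4 lists held 131239, 156760, 139294 and 135671 peaks.

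Groups were taken from the sample titles. Each table's columns name the group, and its column number only names a library. Calls over all genes used limma 3.58.1 (trend, robust, two-sided) on log2 of the value plus 1 for all genes averaging 10 or more. They were adjusted by Benjamini and Hochberg at 0.05. Medians given beside counts of tested list genes are of the limma log2 changes of those genes. Alternatives were edgeR 4.0.16 and DESeq2 1.42.0 on recovered reads, TMM factors, other pseudocounts, filters and thresholds, a replicate block, and leaving out each library. The scripts were tested on simulated data.

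Named genes were the 12 members with the lowest summed change, the 10 most abundant, the 6 lowest in each experiment, members of lists holding 3 or more, the 2 nearest each threshold, members with a lost or gained start, the 5 most unequal each way, and the title's genes. Others were named after their values were seen, to account for the members; 1 member is not reported here.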

Additional observations from a re-analysis of the deposited data

How the results depend on the processing

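The number of members was 103. It was 213 at a log2 threshold of -0.4 and 42 at -0.6, 80 to 141 without 1 library, and 80 to 123 under the other settings: a mean of at least 50 or 200, TMM factors (91), medians, a pseudocount of 5, no overlap between groups and no lower bound. With medians in place of means 105 genes met the rule, of which 76 were members. All genes called lower with sorafenib numbered 5347, or 3100 with a minimum absolute log2 change of 0.5, and 4973 to 5393 without 1 library. With MT1G these were 1575, 374, and 764 to 2013, the fewest without vector library 3. Among the members, limma called 98 lower with sorafenib under each omission and 91 to 97 with MT1G.

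With the replicate block the members called lower were 99 and 100, and all genes 5201 and 1566. Same-numbered libraries showed little shared deviation (correlations -0.14, 0.032 and -0.22 with sorafenib, and -0.34, 0.10 and -0.15 with MT1G). Such correlations cannot show whether same-numbered samples were handled together, which is not stated.

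For open chromatin, starts open in both DMSO libraries and neither sorafenib library were 0, and 1 with a 500-base start region, with peaks of -log10 q of at least 5, or with an equal number of top peaks; they were 0 to 3 without 1 library. The reverse was 0, and 0 to 2. Members with a lost region alone were 24, and 16 to 43; with a gained region alone 7, and 4 to 18, or 12 with an equal number of top peaks. So neither count of regions is firm at 2 libraries a group.

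Of 450 log2 changes recomputed for 25 named genes, 447 moved by less than the spread between libraries. That count does not measure steadiness, because an uneven gene has a wide spread. With medians, U2AF1L5 went from -2.75 to -0.51 with MT1G and still counted among the 447. RPLP0P6 counted too, though with TMM factors its sorafenib change of -0.47 no longer met the rule. Without 1 library, U2AF1L5 ranged from -1.64 to 0.76 with sorafenib, turning without DMSO library 2, and from -3.28 to 0.033 with MT1G, turning without vector library 3; TAGLN moved to -1.11 with TMM factors.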
